A study of Mus musculus with 12 samples.

Results

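CXC chemokines are small secreted proteins that guide leukocytes, and 9 of them are described here in mouse peritoneal macrophages: Cxcl1, Cxcl2, Cxcl3, Cxcl9, Cxcl10, Cxcl11, Cxcl13, Cxcl14 and Cxcl16. They were chosen by gene symbol, and all 9 were found among the 41388 genes counted in each library. All 9 also passed the filter on low counts, which kept 12914 genes. RNA was sequenced from macrophages drawn into the peritoneum by thioglycolate, an irritant broth, harvested 4 days after they were injected. The cells were plated and, on the following day, stimulated for 8 h.

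There were 4 groups of 3 libraries. The 6 control libraries came from macrophages with the LysM-Cre driver alone (titles with cre, called WT in the treatment notes), in which Cre recombinase is made in myeloid cells. The other 6 came from macrophages with the same driver that were labelled PPARg knockout (titles with ppar), PPARg being a nuclear receptor activated by fatty acids. In each genotype, 3 libraries had vehicle (BSA in PBS) and 3 had palmitate at 250 uM, a saturated fatty acid, together with LPS at 100 ng/ml, the endotoxin of Gram-negative bacteria. Palmitate and LPS were always given together, so their effects cannot be told apart. The sources used here do not give the strain, the age or the number of animals behind a library, so p-values measure only the spread between these libraries, which may be technical.

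CXC chemokines fall into groups by receptor and by what induces them. Cxcl1, Cxcl2 and Cxcl3 carry a glutamate-leucine-arginine (ELR) motif, bind the receptor Cxcr2 and attract neutrophils, and in macrophages NF-kB switches them on within hours of a bacterial signal. Cxcl9, Cxcl10 and Cxcl11 lack that motif, bind Cxcr3 on activated T cells and NK cells, and are induced by interferons. Cxcl13 attracts B cells through Cxcr5, Cxcl16 is a membrane-anchored ligand of Cxcr6 that also takes up oxidised lipoproteins, and Cxcl14 is a chemokine made mostly by epithelia and other resting tissues.

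The members lie mostly together on chromosome 5 of the build GRCm38. Cxcl3 (ENSMUSG00000029379) spans chr5:90786103-90788086, Cxcl1 (ENSMUSG00000029380) chr5:90891241-90893115 and Cxcl2 (ENSMUSG00000058427) chr5:90903899-90905909, all on the plus strand. Cxcl9 (ENSMUSG00000029417) at chr5:92321331-92328079, Cxcl10 (ENSMUSG00000034855) at chr5:92346638-92348889 and Cxcl11 (ENSMUSG00000060183) at chr5:92359544-92365485 form a second cluster on the minus strand. Cxcl13 (ENSMUSG00000023078) is at chr5:95956928-95961067 on the plus strand. Cxcl14 (ENSMUSG00000021508) is on chromosome 13 at chr13:56288647-56296551, and Cxcl16 (ENSMUSG00000018920) on chromosome 11 at chr11:70453983-70459984, both on the minus strand.

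The promoters of Cxcl1, Cxcl2, Cxcl3 and Cxcl10 are shown because these 4 genes made up most of the members' counts after stimulation. They come from RefSeq (GRCm38.p6), which held promoter windows for 7 of the 9 members, and were cut to the bases just before the start site. Both strands of 250 bases before each start were searched for the NF-kB motif GGGNNNTTCC and the interferon-stimulated response element (ISRE) GAAANNGAAA, and capitals mark the matches. The intervals are chr5:90891135-90891244 for Cxcl1, chr5:90903789-90903898 for Cxcl2 and chr5:90785991-90786100 for Cxcl3 on the plus strand, and chr5:92348890-92349109 for Cxcl10 on the minus strand.
Cxcl1: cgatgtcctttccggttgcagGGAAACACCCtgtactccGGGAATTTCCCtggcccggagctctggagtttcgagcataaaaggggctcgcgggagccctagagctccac
Cxcl2: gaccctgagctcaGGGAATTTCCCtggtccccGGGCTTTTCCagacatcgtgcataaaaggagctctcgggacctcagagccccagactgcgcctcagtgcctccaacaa
Cxcl3: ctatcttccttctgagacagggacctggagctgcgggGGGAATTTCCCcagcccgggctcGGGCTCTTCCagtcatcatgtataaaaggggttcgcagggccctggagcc
Cxcl10: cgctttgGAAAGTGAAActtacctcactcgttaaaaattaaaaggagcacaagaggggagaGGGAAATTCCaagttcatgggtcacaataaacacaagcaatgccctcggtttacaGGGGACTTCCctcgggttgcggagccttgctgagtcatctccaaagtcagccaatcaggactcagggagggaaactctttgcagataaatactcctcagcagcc
The 3 ELR genes each held 3 NF-kB matches and no ISRE match. In each, 2 of the matches overlap on opposite strands within the stretch GGGAATTTCCC. Cxcl10 held 2 NF-kB matches and 1 ISRE match. Among 32841 promoter windows searched in the same way, 4.65% held the NF-kB motif and 2.98% the ISRE. No match to either motif was found in the windows of Cxcl9 and Cxcl13, and the window of Cxcl14 held 1 ISRE match. RefSeq windows were not at hand for Cxcl11 and Cxcl16. A match describes the letters of the window and not a bound site.

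Each library held 17960457 to 22696385 counts, and 3 facts about the libraries touch what follows. First, Pparg went against its label. It had 61.6 ± 0.69 TMM CPM (counts scaled to library size with the TMM correction, mean ± SD, n = 3) in control vehicle libraries and 99.4 ± 10.6 in those labelled knockout, a log2 difference of 0.69 ± 0.11 (SE, edgeR quasi-likelihood test, Benjamini-Hochberg adjusted p = 0.00124). With palmitate plus LPS Pparg fell in both genotypes, by -4.1 on the log2 scale in controls and -4.5 in libraries labelled knockout. It then had 3.55 ± 0.65 and 4.45 ± 0.76 TMM CPM, control first. The difference between the genotypes at that low level was 0.33 ± 0.16 (edgeR, adjusted p = 0.177). A count over the whole gene does not check the loss of a few exons, so the groups are called by their labels. Second, vehicle replicate 1 labelled knockout stood apart from the others of its group, with chi-square values per degree of freedom of 38.8 and 44.3 against them, where the other pairs within groups lay between 2.33 and 11.7. Last, summed markers of other cells differed by group. The 10 fibroblast and mesothelial genes summed to 144 to 167 TMM CPM in stimulated controls and 199 to 348 in stimulated libraries labelled knockout. In vehicle the same sums were 117 to 137 and 150 to 195. Between stimulated genotypes 6 of the 10 were called higher and none lower, where 10.0% of all tested genes were called higher and 6.10% lower. Pdgfrb, not called, went the other way in value, at 20.8 ± 2.92 TMM CPM in stimulated controls and 15.05 ± 1.62 in those labelled knockout. The 9 neutrophil markers summed to 78.5 to 82.1 in vehicle controls, 112 to 116 in vehicle libraries labelled knockout, 107 to 117 in stimulated controls and 144 to 174 in stimulated libraries labelled knockout. In vehicle most of the difference lay in Mmp8, while Csf3r, S100a8 and Ltf were not called. After stimulation Csf3r carried the sum, at 90.6 and 137 TMM CPM, while S100a8 was lower in libraries labelled knockout (-1.11, edgeR, adjusted p = 0.000367). The defining gene Ly6g was at 0 in all 12 libraries, and S100a9 was at 0 in every group except for up to 2 counts in a control vehicle library. The 3 endothelial markers summed to 13.9 to 16.6 in stimulated controls and 21.2 to 25.7 in stimulated libraries labelled knockout. Most of it was Vwf, at 14.0 and 21.5, while Pecam1 was at 0.229 and 0.167. Of the 2 endothelial markers tested, 1 was called higher and none lower, where 10.0% and 6.10% of all tested genes were. The 4 B cell markers summed to 4.63 to 7.77 and 3.14 to 4.41, and none of them was called in any of the 5 comparisons. The 8 macrophage markers summed to 6109 to 8843 in all libraries, most of it Cd68. Between stimulated genotypes 3 of the 8 were called higher (Fcgr1, Mertk and Adgre1) and 2 lower (Cd14 and Lyz2). Of all tested genes, 10.0% were called higher there and 6.10% lower. What part the marker differences have in the results below was not tested, and in bulk RNA fewer cells of a type and less RNA per cell cannot be told apart.

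Palmitate plus LPS took the 9 members from a trace to about 1% of all counts. They made up 0.0127% ± 0.0001 of a library's counts in vehicle controls and 1.21% ± 0.04 in stimulated controls (SD, n = 3). In libraries labelled knockout the shares were 0.0167% ± 0.0003 and 0.943% ± 0.046. The stimulated shares ranged from 1.17% to 1.25% in controls and from 0.893% to 0.982% in libraries labelled knockout, so these groups did not overlap. Cxcl2 alone gave most of this: after stimulation it reached 8257 to 9204 TMM CPM in controls and 6086 to 7299 in libraries labelled knockout.

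**Figure D1:**
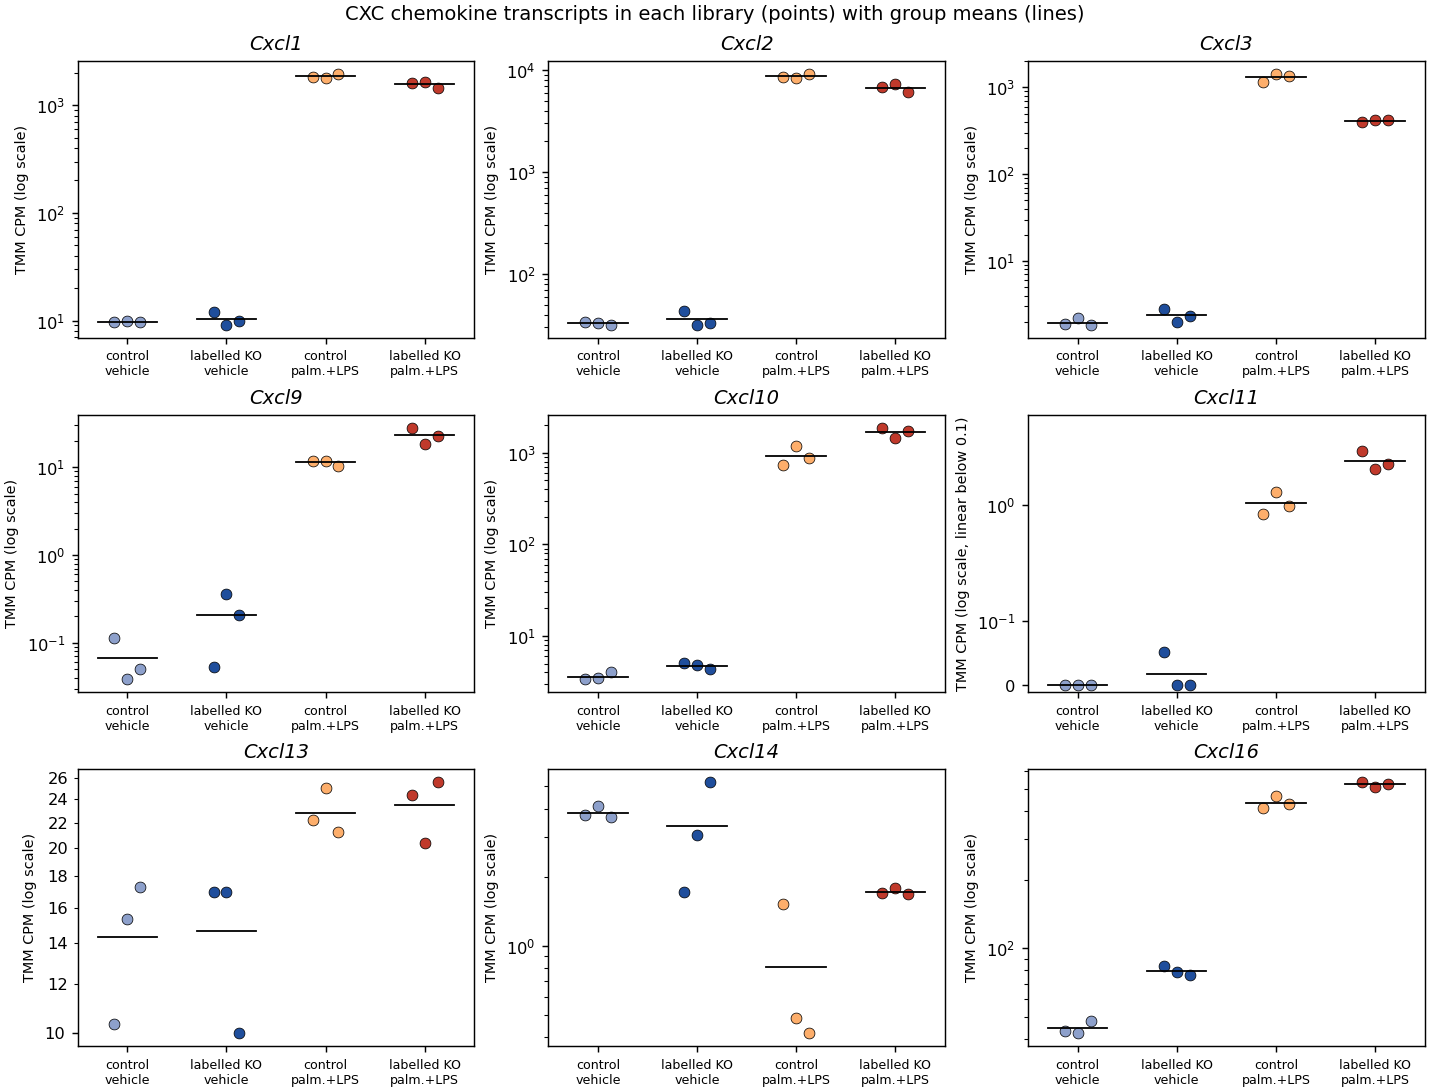
TMM CPM of the 9 members (vertical axes, log scale, linear below 0.1 for Cxcl11) in each of the 12 libraries (points), with group means as lines, for control and labelled-knockout (labelled KO) macrophages with vehicle or palmitate plus LPS (palm.+LPS). In all 3 stimulated libraries labelled knockout, Cxcl1, Cxcl2 and Cxcl3 are lower than in any stimulated control library. Cxcl9, Cxcl10, Cxcl11, Cxcl14 and Cxcl16 are higher there, and Cxcl13 overlaps. The differences of Cxcl1 and Cxcl14 were not called. How many of all tested genes have groups apart in this way was not counted.

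The response to stimulation within each genotype came first among the comparisons, since it sets the scale of the rest. In controls 8 of the 9 members rose and 1 fell, where 32.0% of all tested genes rose and 34.7% fell. The members' median log2 difference was 7.42 over the 8 without Cxcl11, against -0.05 over all tested genes. In libraries labelled knockout 8 rose and 1 fell as well, where 33.7% of all tested genes rose and 35.6% fell, and the same medians were 6.98 and -0.06. When libraries were scaled by total counts instead, the median of all genes shifted to -0.38 in controls and -0.42 in libraries labelled knockout, and the share of called genes that rose went from 48.0% to 29.2% and from 48.6% to 28.9%.

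Cxcl3 had the steepest rise of the ELR chemokines in controls. It had 1.87, 2.18 and 1.82 TMM CPM in control vehicle libraries and 1159, 1439 and 1353 after stimulation. That is a log2 difference of 9.38 ± 0.14 (edgeR, adjusted p = 4.47e-17). Libraries labelled knockout started from 2.78, 1.99 and 2.31 TMM CPM and reached 397, 425 and 425, a difference of 7.47 ± 0.13 (adjusted p = 1.39e-16). The vehicle values of the genotypes overlap, while the stimulated values lie far apart.

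Cxcl2 and Cxcl1 rose in both genotypes. Cxcl2, an early product of activated macrophages, had 34.1, 32.7 and 31.5 TMM CPM in control vehicle libraries and 43.2, 31.4 and 33.0 in those labelled knockout. Its log2 response was 8.05 ± 0.14 in controls (adjusted p = 1.53e-16) and 7.55 ± 0.14 in libraries labelled knockout (edgeR, adjusted p = 2.09e-16). Cxcl1 had 9.60, 9.80 and 9.70 TMM CPM in control vehicle libraries and 12, 9.04 and 9.86 in those labelled knockout, and it responded by 7.58 ± 0.12 and 7.26 ± 0.12. For Cxcl1, Cxcl2 and Cxcl3 alike, the highest of the vehicle values labelled knockout is that of replicate 1, the library that stood apart.

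Of the interferon-induced chemokines, Cxcl10 was the abundant one. It rose from 3.36, 3.45 and 3.99 TMM CPM to 738, 1178 and 876 in controls, and its log2 response was 8.02 ± 0.20 there (adjusted p = 5.40e-15 by edgeR). In libraries labelled knockout it went from 5.08, 4.78 and 4.33 to 1874, 1446 and 1722, a difference of 8.48 ± 0.20 (adjusted p = 2.51e-15). Cxcl9 was near the floor in vehicle, with raw counts of 3, 1 and 1 in controls and 1, 9 and 5 in libraries labelled knockout. After stimulation it had 226, 218 and 202 counts in controls and 481, 343 and 437 in the libraries labelled knockout, and its log2 responses were 7.25 ± 0.34 and 6.70 ± 0.27.

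Cxcl11 was the rarest member. It had no count in the 3 control vehicle libraries and 16, 24 and 19 counts after stimulation, which makes it at least 25.2-fold higher against a floor of 3 counts over the group. In libraries labelled knockout it went from 1, 0 and 0 counts to 50, 38 and 43, a ratio of 165 with a 95% counting interval of 29.0 to 6551. That interval covers counting error only.

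The remaining members moved less or the other way. Cxcl16 rose from 43.5, 42.4 and 48.0 TMM CPM to 410, 465 and 429 in controls, where its log2 response was 3.28 ± 0.08 (adjusted p = 9.39e-15 by edgeR), and by 2.72 ± 0.08 in libraries labelled knockout. Cxcl13 rose by 0.68 ± 0.19 in controls (adjusted p = 0.00576) and by 0.68 ± 0.19 in libraries labelled knockout (edgeR, adjusted p = 0.00535). With scaling by total counts its responses were 0.35 and 0.32 and neither was called (adjusted p = 0.102 and 0.130). Cxcl14 was the member that fell: its log2 difference was -2.24 ± 0.40 in controls (adjusted p = 0.000148) and -0.98 ± 0.36 in libraries labelled knockout (edgeR, adjusted p = 0.0252). Without stimulated control replicate 1 the control response was -3.07. The groups labelled knockout overlap, from 1.73 to 5.24 TMM CPM in vehicle and from 1.68 to 1.79 after stimulation. Without vehicle replicate 3 labelled knockout, which held the highest value, that difference was -0.50 (adjusted p = 0.198). The call was also lost without stimulated replicate 1, 2 or 3 labelled knockout (adjusted p = 0.0615, 0.0570 and 0.0675).

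**Figure D2:**
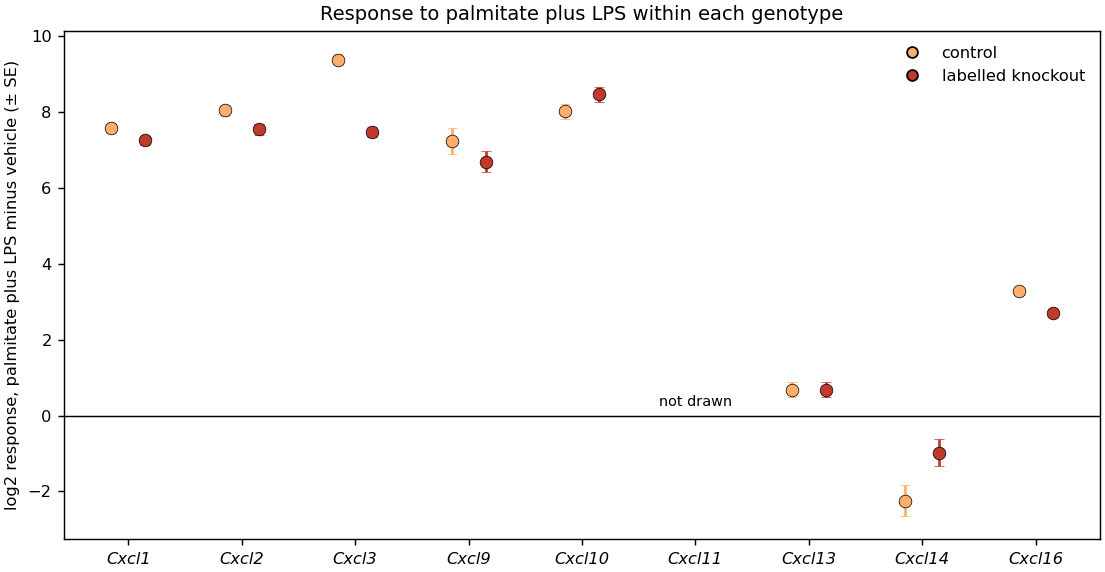
Log2 response to palmitate plus LPS (vertical axis, ± SE, palmitate plus LPS minus vehicle) for each member in control and labelled-knockout macrophages, 3 libraries a group; Cxcl11 is not drawn because its vehicle groups held 0 and 1 counts. The response of Cxcl3 is 9.38 in controls and 7.47 in libraries labelled knockout, the widest gap between the genotypes among the members drawn that rose by more than 2.

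Within the stimulated libraries, the ELR and the interferon-induced members that passed the test went opposite ways with genotype. Cxcl3 and Cxcl2 were lower in libraries labelled knockout, and Cxcl9, Cxcl10, Cxcl11 and Cxcl16 were higher. Cxcl1, Cxcl13 and Cxcl14 did not pass the test. So 4 of 9 members were called higher and 2 lower, where 10.0% of all tested genes were called higher and 6.10% lower. The median over the 8 members without Cxcl11 was 0.15, against -0.01 over all tested genes. The share of called genes that were higher was 62.1%, and 34.8% with scaling by total counts, under which these 6 members were called in the same directions and Cxcl1 was called lower as well (-0.32, adjusted p = 0.00580).

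The largest of these differences was that of Cxcl3. Its 3 stimulated control libraries held 1159 to 1439 TMM CPM and those labelled knockout 397 to 425, a log2 difference of -1.66 ± 0.09 (edgeR, adjusted p = 3.27e-08), or 0.315 of the control level. Cxcl2 differed by -0.37 ± 0.11 (adjusted p = 0.0277), with 8560, 8257 and 9204 TMM CPM in controls and 6786, 7299 and 6086 in libraries labelled knockout. The groups do not overlap, but the call was lost when control replicate 3 (adjusted p = 0.117), labelled-knockout replicate 1 (0.0746) or labelled-knockout replicate 3 (0.128) of the stimulated libraries was left out. Cxcl1 had 1822, 1781 and 1966 TMM CPM in controls and 1626, 1637 and 1455 in libraries labelled knockout, a difference of -0.24 ± 0.09 that was not called (adjusted p = 0.0780). It was called without vehicle replicate 1 labelled knockout, which enters through the shared estimate of the spread (difference -0.24, adjusted p = 0.00214). It was also called with only the 2 groups compared (adjusted p = 0.00517) and without a filter (adjusted p = 0.0366).

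The mix of the 3 ELR transcripts was also set out, as a description without a test. Per exon length, Cxcl3 was 4.18% to 4.98% of the summed level of Cxcl1, Cxcl2 and Cxcl3 in control vehicle libraries and 10.3% to 12.8% in stimulated controls. In libraries labelled knockout it was 4.78% to 5.22% in vehicle and 4.61% to 5.45% after stimulation. Stimulated controls thus stood above the other 3 groups, which overlap one another. The level of Cxcl2 per exon length was 6.36 ± 0.80 times that of Cxcl3 in stimulated controls (SD, n = 3) and 15.5 ± 1.55 times in stimulated libraries labelled knockout. Reads could be split between these genes in part: 126 stretches of 50 bases occur in both Cxcl2 and Cxcl3 transcripts, which is 5.84% of the stretches of Cxcl2 and 3.51% of those of Cxcl3, and Cxcl1 shares none with either.

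The 3 interferon-induced chemokines were all higher in the stimulated libraries labelled knockout. Cxcl10 had 738, 1178 and 876 TMM CPM in stimulated controls and 1874, 1446 and 1722 in those labelled knockout, a log2 difference of 0.85 ± 0.14 (edgeR, adjusted p = 0.000545). Cxcl9 had 11.9, 11.8 and 10.5 against 28.3, 18.6 and 23.0, a difference of 1.03 ± 0.16 (adjusted p = 0.000478). Cxcl11 had 0.842, 1.30 and 0.984 against 2.94, 2.06 and 2.26, a difference of 1.21 ± 0.27 (adjusted p = 0.00862). None of the 3 pairs of groups overlaps, but nor do those of Cxcl1 and Cxcl14, which were not called. The share of all tested genes with groups apart in this way was not counted. Over the 19 settings and left-out libraries tried, the adjusted p stayed at or under 0.00594 for Cxcl9, 0.0437 for Cxcl10 and 0.0460 for Cxcl11.

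Cxcl16 was higher by a small margin, with 410, 465 and 429 TMM CPM in stimulated controls and 536, 508 and 525 in those labelled knockout. That difference of 0.27 ± 0.08 (edgeR, adjusted p = 0.0266) was lost when any of 5 of the 6 stimulated libraries was left out, with adjusted p-values up to 0.104. Those 5 were control replicates 1 and 3 and labelled-knockout replicates 1, 2 and 3. Cxcl14 had 1.53, 0.486 and 0.415 TMM CPM in controls and 1.71, 1.79 and 1.68 in libraries labelled knockout, and its difference of 1.09 ± 0.46 was not called (adjusted p = 0.125). Without control replicate 1, the highest control, that difference was 1.92 and was called (adjusted p = 0.0243), and without vehicle replicate 1 labelled knockout it was 1.09 and called (adjusted p = 0.0306). Cxcl14 was also called without a filter (1.08, edgeR, adjusted p = 0.0024) and with only the 2 groups compared (1.08, adjusted p = 0.0339). That makes 4 of 19 alternatives. Cxcl13 differed by 0.04 ± 0.19 (adjusted p = 0.909), with an approximate 95% interval of -0.34 to 0.41.

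**Figure D3:**
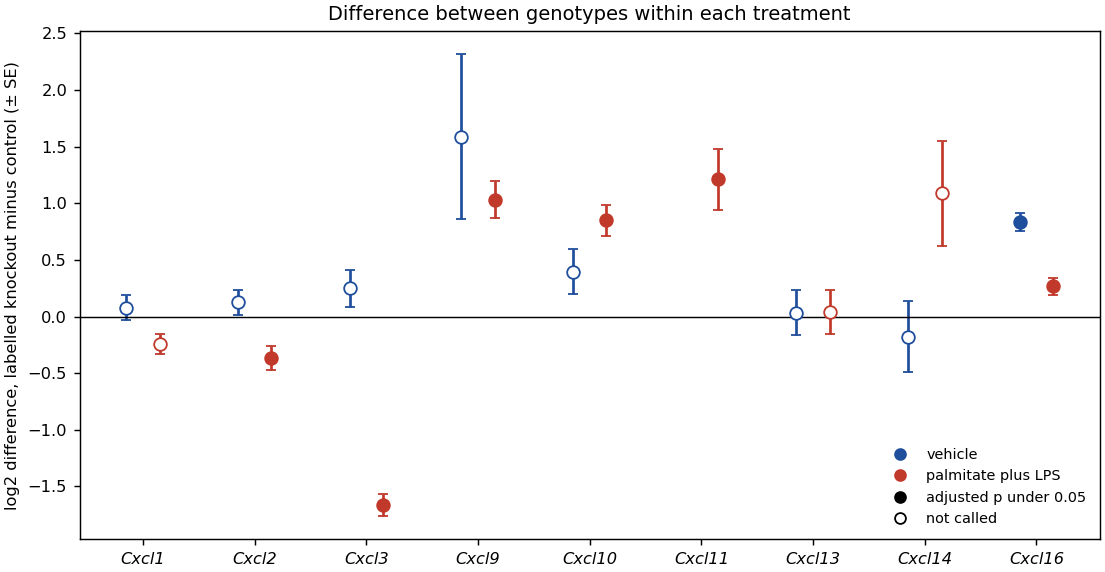
Log2 difference between libraries labelled knockout and controls (vertical axis, ± SE, 3 libraries a group) for each member in vehicle and after palmitate plus LPS; filled points have an adjusted p under 0.05, and Cxcl11 in vehicle is left out because it had 0 and 1 counts. After stimulation Cxcl3 is at -1.66 while Cxcl9, Cxcl10 and Cxcl11 lie between 0.85 and 1.21.

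In vehicle only Cxcl16 passed the test, as 1 of 9 members higher and none lower, where 2.11% of all tested genes were higher and 1.69% lower. Its control libraries held 43.5, 42.4 and 48.0 TMM CPM and those labelled knockout 83.4, 79.1 and 76.2, so the groups lie well apart (log2 difference 0.84 ± 0.08, edgeR, adjusted p = 9.34e-06). Without replicate 1 labelled knockout the difference was 0.80 ± 0.07 (adjusted p = 7.73e-10). Cxcl10 had 3.36, 3.45 and 3.99 TMM CPM in controls and 5.08, 4.78 and 4.33 in libraries labelled knockout, groups that do not overlap but whose difference of 0.40 ± 0.20 was not called (adjusted p = 0.342). Cxcl9, on 1 to 9 counts a library, differed by 1.59 ± 0.73 (adjusted p = 0.299). The differences of Cxcl1, Cxcl2 and Cxcl3 were 0.08 ± 0.11, 0.13 ± 0.11 and 0.25 ± 0.16, and those of Cxcl13 and Cxcl14 0.04 ± 0.20 and -0.18 ± 0.31. For Cxcl11, with 0 counts in controls and 1 in libraries labelled knockout, no fold is given.

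Cxcl16 shares 552 of its 3021 exon bases with Zmynd15, a gene on the opposite strand, and the sources used here do not say whether counting used the strand. Zmynd15 had 55 to 102 counts in control vehicle libraries, 68 to 134 in those labelled knockout, 584 to 659 in stimulated controls and 753 to 838 in stimulated libraries labelled knockout. Reads of the pair cannot be told apart in the shared bases if strand was not used. Cxcl10 shares 133 of 1520 exon bases with Art3, which had 0 to 26 counts, and Cxcl11 shares 1582 of 3794 with Gm2673, which had none.

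Whether the response itself differed between the genotypes was tested as an interaction, the log2 response in libraries labelled knockout minus that in controls. It was lower for 2 of the 9 members and higher for none, where 3.35% of all tested genes were lower and 4.70% higher. Cxcl3 responded less by -1.91 ± 0.19 (edgeR, adjusted p = 4.31e-05), and Cxcl16 by -0.57 ± 0.11 (adjusted p = 0.00654). For Cxcl16 this goes with its higher vehicle level, since its stimulated level was higher as well. Cxcl2 was at -0.49 ± 0.15 (adjusted p = 0.0617) and Cxcl1 at -0.32 ± 0.14 (adjusted p = 0.157). The interaction of Cxcl10 was 0.45 ± 0.24 (adjusted p = 0.239), that of Cxcl9 -0.55 ± 0.71 (0.644), that of Cxcl14 1.26 ± 0.56 (0.165) and that of Cxcl13 0.00365 ± 0.275 (0.996). So the higher stimulated levels of Cxcl9 and Cxcl10 were not accompanied by a response that differed past the threshold, except for Cxcl10 without a filter on low counts (0.46, adjusted p = 0.0399), and Cxcl11 gives no interaction because of its vehicle counts. Without vehicle replicate 1 labelled knockout, Cxcl3 was at -1.79 ± 0.21 (adjusted p = 4.37e-07), Cxcl16 at -0.54 ± 0.09 (adjusted p = 0.000140) and Cxcl2 at -0.34 ± 0.11, which then was called (adjusted p = 0.0307). Cxcl2 was also called without vehicle replicate 2 (-0.58, adjusted p = 0.0306) or 3 (-0.55, adjusted p = 0.0329) labelled knockout, with scaling by total counts (-0.52, adjusted p = 0.0224), without a filter (-0.49, adjusted p = 0.000807) and with DESeq2 (-0.50, adjusted p = 0.0334), which makes 6 of 18 alternatives. Cxcl14 was called without vehicle replicate 3 labelled knockout (1.74, adjusted p = 0.0287) or stimulated control replicate 1 (2.10, adjusted p = 0.0442). It was also called without a filter (1.26, edgeR, adjusted p = 0.00537), which makes 3 of 18 alternatives. With scaling by total counts, 33.0% of the genes called in the interaction were higher, against 58.4%.

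The distance between the ELR and the interferon-induced chemokines was set out for each library as the mean log2 CPM of Cxcl1, Cxcl2 and Cxcl3 minus that of Cxcl9, Cxcl10 and Cxcl11. In vehicle it was 4.41 to 4.67 in controls and 3.83 to 4.57 in libraries labelled knockout, which overlap. After stimulation it was 6.69 to 7.08 in controls and 4.91 to 5.47 in libraries labelled knockout, which do not. The rare Cxcl9 and Cxcl11 weigh as much as Cxcl10 in this measure, and a prior count of 2 keeps the vehicle values from running to extremes. By abundance, the level of Cxcl2 per exon length was 14.0 ± 3.46 times that of Cxcl10 in stimulated controls and 5.87 ± 1.23 times in stimulated libraries labelled knockout (SD, n = 3).

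**Figure D4:**
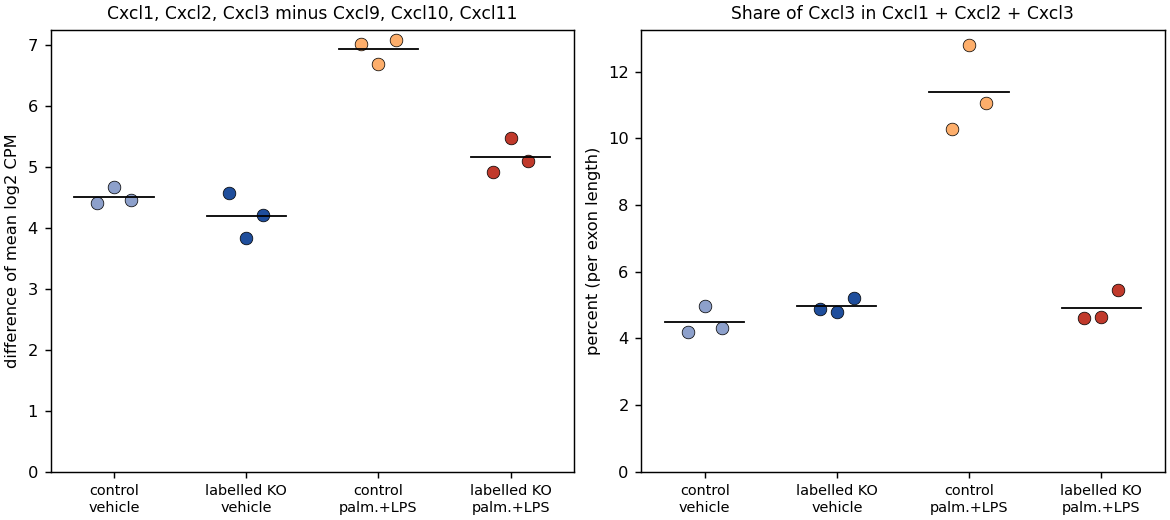
Left, the mean log2 CPM of Cxcl1, Cxcl2 and Cxcl3 minus that of Cxcl9, Cxcl10 and Cxcl11; right, the percent of Cxcl3 in the summed level of Cxcl1, Cxcl2 and Cxcl3 per exon length; points are libraries and lines group means, 3 libraries a group. Stimulated controls stand highest in both panels, at 6.69 to 7.08 and at 10.3% to 12.8%.

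The order of the members by level per exon length (TMM RPKM) differed between the groups. In control vehicle libraries it ran Cxcl2 (31.1 ± 1.25), Cxcl16 (14.8 ± 0.99), Cxcl13 (12.2 ± 3.05), Cxcl1 (10.2 ± 0.11), Cxcl10 (2.37 ± 0.22), Cxcl14 (2.11 ± 0.12), Cxcl3 (1.94 ± 0.20), Cxcl9 (0.0230 ± 0.0136) and Cxcl11 (listed at 0). Cxcl16 and Cxcl13, Cxcl13 and Cxcl1, Cxcl10 and Cxcl14, and Cxcl14 and Cxcl3 overlapped between libraries there. In vehicle libraries labelled knockout Cxcl2 (34.0 ± 6.10) and Cxcl16 (26.4 ± 1.20) led, Cxcl13 (12.5 ± 3.44) and Cxcl1 (10.8 ± 1.61) overlapped, and Cxcl10 (3.11 ± 0.25), Cxcl3 (2.34 ± 0.39) and Cxcl14 (1.83 ± 0.97) came next with Cxcl14 overlapping both. Cxcl9 (0.0708 ± 0.0527) and Cxcl11 (0.00460 ± 0.00798) were last.

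After stimulation the ELR chemokines led in controls, in the order Cxcl2 (8229 ± 459), Cxcl1 (1948 ± 102) and Cxcl3 (1305 ± 142), followed by Cxcl10 (612 ± 148). In stimulated libraries labelled knockout Cxcl10 (1106 ± 143) stood above Cxcl3 (412 ± 16.0), after Cxcl2 (6379 ± 578) and Cxcl1 (1650 ± 107), with no overlap between neighbours in this order in either genotype. Below them came Cxcl16 (144 ± 9.22 and 173 ± 4.70), Cxcl13 (19.5 ± 1.71 and 20.04 ± 2.35), Cxcl9 (3.92 ± 0.27 and 8.02 ± 1.67), Cxcl14 (0.444 ± 0.342 and 0.947 ± 0.031) and Cxcl11 (0.274 ± 0.061 and 0.638 ± 0.122), control first. Of these, Cxcl14 and Cxcl11 overlapped in controls.

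Genes with the most similar pattern were found by the root mean squared difference of log2 CPM, each gene centred on its own mean over the 12 libraries. For Cxcl3 the nearest was Il1b, which encodes interleukin-1 beta, at 0.297, followed by Tarm1 (0.443) and Cxcl2 (0.552). Il1b had 4164 TMM CPM in stimulated controls and 2145 in stimulated libraries labelled knockout. Il1a, which encodes interleukin-1 alpha, was nearest to both Cxcl1 (0.126) and Cxcl2 (0.204), and Cxcl1 and Cxcl2 were 0.206 apart. Ccl2 was next to Cxcl1 (0.209), and Isg15 next to Cxcl2 (0.251).

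The nearest genes of the interferon-induced chemokines were as follows. Cxcl10 had Ifit3 (0.168), Mx1 (0.184) and Ifit2 (0.215), all antiviral genes, and Cxcl9 had the guanylate-binding protein genes Gbp2 (0.419) and Gbp3 (0.439) with Klrk1 (0.422) between them. Cxcl11 had Apobec4 (0.211), Phf11a (0.235) and Lgals9 (0.238). The prior count of 2 narrows the range of Cxcl11, at 0 to 50 counts a library, so its distances depend on that setting. Cxcl16 had Jag1 (0.148), Aoah (0.160) and Mmp14 (0.162), Cxcl14 had Chn2 (0.278), Mri1 (0.309) and Hpse (0.339), and Cxcl13 had Trim5 (0.163), Nmt1 (0.183) and Med19 (0.190). All these distances rest on the same 12 libraries and are mostly set by the difference between vehicle and stimulation.

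The other parts of the CXC system were read from lists of ligands, receptors, proteases and regulators. Of 6 further CXC ligands, Cxcl15, Cxcl17 and Ppbp were too low to test. Cxcl12, a ligand of Cxcr4 made mainly by stromal cells, was higher in stimulated libraries labelled knockout, at 3.63 ± 0.81 against 2.22 ± 0.49 TMM CPM (log2 difference 0.70 ± 0.22, edgeR, adjusted p = 0.0375). In vehicle it stood at 3.66 ± 0.73 against 2.25 ± 0.15 TMM CPM, a difference of 0.71 ± 0.20 that was not called (edgeR, adjusted p = 0.0715). The interaction of Cxcl12 was -0.006 ± 0.298 (adjusted p = 0.994). Any link to the fibroblast and mesothelial markers given above was not tested. Cxcl5, an ELR ligand, rose with stimulation in controls by 0.81 ± 0.21 (adjusted p = 0.00277) and stood at 0.10 ± 0.21 in libraries labelled knockout (adjusted p = 0.685), with an interaction of -0.71 ± 0.29 that was not called (adjusted p = 0.139). Between the stimulated genotypes Cxcl5 differed by -0.29 ± 0.205 and was not called (edgeR, adjusted p = 0.361). Pf4, a platelet and macrophage chemokine, was not called in any of the 5 comparisons.

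The receptors were low. Of 6 tested receptors, 4 fell and 1 rose with stimulation in controls, where 34.7% of all tested genes fell and 32.0% rose. Those labelled knockout had 3 that fell and 1 that rose, where 35.6% of all tested genes fell and 33.7% rose. Cxcr4 fell from 15.4 ± 0.53 to 2.20 ± 0.41 TMM CPM in controls (log2 difference -2.80 ± 0.17, edgeR, adjusted p = 3.77e-10), and Cxcr3, the receptor of Cxcl9, Cxcl10 and Cxcl11, from 2.90 ± 0.36 to 0.299 ± 0.123 (difference -3.26 ± 0.27, adjusted p = 3.15e-08). In vehicle, 2 receptors were higher in libraries labelled knockout: Cxcr3 at 5.41 ± 0.63 TMM CPM (difference 0.89 ± 0.17, adjusted p = 0.00527) and Cxcr2, the receptor of the ELR ligands, at 1.18 ± 0.16 against 0.400 ± 0.137 (difference 1.54 ± 0.36, adjusted p = 0.0246). That is 2 of 6, where 2.11% of all tested genes were higher in vehicle. None of the 6 was called between genotypes after stimulation. In the interaction 1 of the 6 was lower and none higher, where 3.35% and 4.70% of all tested genes were. That was Cxcr3, at -1.88 ± 0.54 (edgeR, adjusted p = 0.044). It held 3 to 7 counts in stimulated control libraries and 2 to 4 in those labelled knockout. Cxcr2 held 26 to 27 counts in each vehicle library labelled knockout and 7 to 14 in controls. Cxcr2, like Mmp8, is itself in the neutrophil marker list.

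Of 4 tested proteases that cut chemokines, 1 was higher and 1 lower in libraries labelled knockout in vehicle, where 2.11% and 1.69% of all tested genes were. After stimulation 2 were higher and none lower, where 10.0% and 6.10% of all tested genes were. Mmp8, a collagenase that processes ELR chemokines, was higher in libraries labelled knockout in vehicle (43.7 ± 4.83 against 16.4 ± 1.19 TMM CPM, log2 difference 1.42 ± 0.13, edgeR, adjusted p = 9.31e-06) and after stimulation (10.8 ± 2.48 against 4.75 ± 0.51, difference 1.18 ± 0.16, adjusted p = 0.000122). Adam17, a sheddase of membrane proteins, was higher after stimulation by 0.53 ± 0.13 (adjusted p = 0.0125). Adam10, which sheds Cxcl16, was at 67.3 ± 4.12 TMM CPM in stimulated controls and 67.9 ± 3.96 in stimulated libraries labelled knockout. Mmp9 was lower in vehicle by -0.83 ± 0.16 (adjusted p = 0.00773).

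The 12 NF-kB subunits and inhibitors all rose with stimulation in both genotypes, with medians of 2.81 and 2.73 on the log2 scale. Of all tested genes, 32.0% rose in controls and 33.7% in libraries labelled knockout, with medians of -0.05 and -0.06. Between the stimulated genotypes 1 of 12 was higher and none lower: Tnfaip3, which encodes the inhibitor A20, at 342 ± 4.02 against 228 ± 32.0 TMM CPM (log2 difference 0.59 ± 0.12, edgeR, adjusted p = 0.00368). That count is near the 10.0% of all tested genes called higher. In the interaction 1 of the 12 was called higher and 1 lower, where 4.70% and 3.35% of all tested genes were. The response of Tnfaip3 was larger in libraries labelled knockout, by 0.85 ± 0.18 (edgeR, adjusted p = 0.00996). That of Bcl3, an atypical inhibitor, was smaller, by -1.03 ± 0.26 (adjusted p = 0.0257). The median of the 12 genes between stimulated genotypes was 0.08.

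Of 17 genes of the interferon receptor pathway, 8 were higher and none lower in stimulated libraries labelled knockout, where 10.0% of all tested genes were higher and 6.10% lower. Their median log2 difference was 0.30, against -0.01 over all tested genes. Ifnb1, which encodes interferon beta, had 7 to 9 counts in stimulated controls and 23 to 40 in those labelled knockout (difference 1.96 ± 0.33, edgeR, adjusted p = 0.00121). Usp18, a brake on the receptor, differed by 0.61 ± 0.09 (adjusted p = 0.000373) and Irf7 by 0.63 ± 0.11 (adjusted p = 0.000726). In vehicle 3 of the 17 were higher, Usp18, Irf1 and Irf7, by 0.52, 0.38 and 0.42, where 2.11% of all tested genes were higher. Ifng, which encodes interferon gamma, went the other way in value, with 55 to 98 counts in stimulated controls and 35 to 59 in those labelled knockout, and was not called (adjusted p = 0.0847). In the interaction 2 of the 17 pathway genes were higher and none lower, where 4.70% and 3.35% of all tested genes were. They were Stat2 (0.89 ± 0.20, edgeR, adjusted p = 0.0157) and Tyk2 (0.89 ± 0.25, adjusted p = 0.0409). The responses of Ifnb1, Usp18 and Irf7 did not differ past the threshold (adjusted p = 0.245, 0.683 and 0.384).

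Among 7 regulators of chemokine mRNA stability, 1 was higher and 1 lower in stimulated libraries labelled knockout, where 10.0% of all tested genes were higher and 6.10% lower. Zc3h12a, an RNase that degrades inflammatory mRNAs, was at 46.0 ± 3.47 against 66.3 ± 1.69 TMM CPM (log2 difference -0.53 ± 0.10, edgeR, adjusted p = 0.00134). Zfp36, which encodes tristetraprolin, a protein that binds AU-rich mRNAs and speeds their decay, was higher by 0.37 ± 0.11 (adjusted p = 0.0268). Neither response differed past the threshold between the genotypes.

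**Figure D5:**
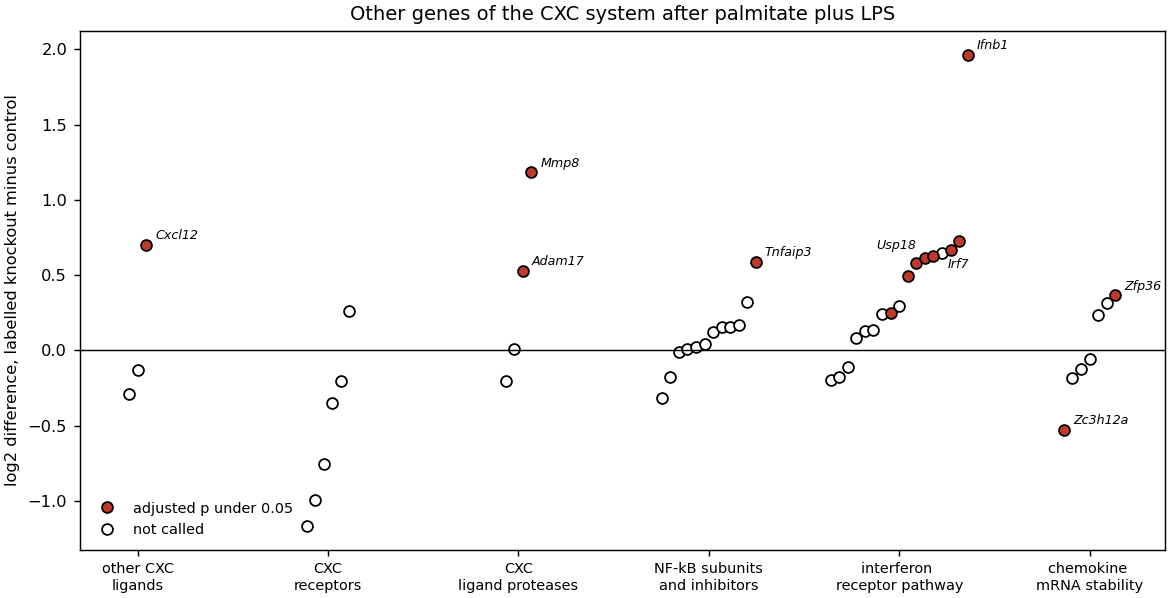
Log2 difference between stimulated libraries labelled knockout and stimulated controls (vertical axis, 3 libraries a group) for the tested genes of 6 lists, each point a gene; filled points have an adjusted p under 0.05, and some of those with the smallest p are named. Of 17 interferon receptor pathway genes 8 are filled, all above 0, and of 12 NF-kB genes 1 is. Of all tested genes, 10.0% were called higher and 6.10% lower.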

How the data were processed

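Per the submitters' processing notes, the tools were bcl2fastq 2.0, STAR 2.0.4b, Subread and featureCounts 1.45 with the build GRCm38. The sources used here give neither the options nor the annotation release nor whether strand was used. Per the labels' protocols, RNA was purified on Ambion columns and libraries were made with Clontech SMARTer v1. The authors deposited, for each library, a raw count per gene, a CPM (each count relative to the sum over its library) and an RPKM (that CPM per kilobase of exon). Only the deposited count and exon length were used.

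Libraries were grouped by title. Genes were filtered with filterByExpr, libraries scaled by TMM, and edgeR 4.0.16 (R 4.3.3) fitted its quasi-likelihood F-test to all 12 libraries with 1 mean per group. P-values were adjusted over the 12914 genes of each of 5 comparisons (Benjamini-Hochberg, threshold 0.05). A standard error is the log2 difference divided by the square root of F. Log2 CPM used a prior count of 2. TMM RPKM divides TMM CPM by the deposited exon length. The fit was tested on simulated data; the pass mark for 2-fold changes was lowered after low-count genes were seen to be missed.

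The members and lists were chosen with earlier results of these data known, as were the promoter motifs. Text names all members, Pparg, up to 4 genes of smallest p per list and comparison, and the 3 nearest genes per member. A few other genes were added after their values were seen. These are Adam10, Ly6g, S100a9, Cd68, Adgre1, Ifng, Pecam1, Cxcl15, Cxcl17 and Ppbp, and the genes overlapping a member. A result that names a withheld item is not reported here. Alternatives were DESeq2 1.42.0 and its size factors, scaling by total counts, no filter or 1 CPM in 3 libraries, the replicate block, only the 2 groups compared, and leaving out each library.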

Additional observations from a re-analysis of the deposited data

Results flagged for a closer look

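The response of Cxcl3 to palmitate plus LPS differed between the genotypes in a direct test of the difference: the log2 response in libraries labelled knockout minus that in controls was -1.91 ± 0.19 (edgeR quasi-likelihood test, adjusted p = 4.31e-05). All 3 stimulated libraries labelled knockout lay below all 3 stimulated controls, and the vehicle groups overlapped.

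The response of Cxcl16 differed in the same test, by -0.57 ± 0.11 (edgeR, adjusted p = 0.00654). Here all 3 libraries labelled knockout lay above all 3 controls both in vehicle and after stimulation, and the gap was wider in vehicle.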

How the results depend on the processing

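Of the member values under the alternatives, 756 kept their direction or stayed uncalled, 18 gained and 15 lost a call, and none that was called reversed. The calls of Cxcl3, Cxcl9, Cxcl10 and Cxcl11 between stimulated genotypes, of Cxcl16 in vehicle and of the interactions of Cxcl3 and Cxcl16 held in every setting tried. Counts of called genes moved more. In vehicle, 491 genes became 960 without a filter and 229 with only the 2 groups compared, and 261 to 789 when 1 library was left out. In palmitate plus LPS, 2081 became 3811 with only the 2 groups and 1227 to 4080 when 1 library was left out. In the interaction, 1039 became 1875 without a filter and 428 to 1962 when 1 library was left out. Among the fits that leave out 1 library, the largest counts in the first 2 came without vehicle replicate 1 labelled knockout and in the interaction without replicate 3 of that group. Member calls in the interaction went from 2 to 5 without a filter and were 2 to 4 when 1 library was left out. The cause was not tested.

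Libraries of different groups with the same replicate number showed no likeness in their deviations from the group means. The 18 same-numbered pairs correlated at -0.309 to 0.067 (median -0.0229). The 36 pairs with different numbers correlated at -0.181 to 0.271 (median 0.00816), 6 of them over 0.1. Whether libraries were paired in a way that the numbers do not show was not tested. With a replicate block the interaction called 514 genes, 349 were called in vehicle and 1549 after stimulation, and Cxcl16 lost its call between stimulated genotypes (0.27, adjusted p = 0.0648). Depth limits Cxcl9 and Cxcl11 in vehicle, at 0 to 9 counts a library.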
